A study of Drosophila melanogaster with 18 samples.

Results

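Heads of flies trained with sucrose were compared with heads of flies trained with sorbose, in order to ask which transcripts separated a nutritious from a non-nutritious sweet sugar. The comparison used 12 of the 18 single-head libraries of the data set, 6 from each sugar, chosen by their labels, and the expression values of the remaining 6 are given beside them as a description. All libraries were made from polyA RNA of one adult Drosophila melanogaster head each, and the methods state that the heads were female. Flies of the sucrose and sorbose groups were food deprived, trained by pairing an odor with the sugar and collected 4 h after training. Flies of the odor group were starved and received the odor with no sugar, and their labels call them naive and give no collection time, so sugar, training and time of collection cannot be told apart in any difference from them. No strain or age is named in the labels. For the later memory tests the methods describe standard food after training, and whether flies collected for RNA also received it was not given in the sources used here. The trained groups therefore shared starvation, odor and the taste of a sugar, and differed in which sugar was given. The paper reports that training with L-sorbose gives strong short-term memory but weak long-term memory. Food value and the strength of long-term memory therefore cannot be told apart in this comparison.

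Sucrose and L-sorbose are both sweet to flies, and sucrose is split into glucose and fructose and burned, while sorbose gives little or no energy. A fasting fly releases triglyceride and glycogen from its stores, oxidizes fatty acids in mitochondria and makes glucose from amino acids, and a meal turns this around through insulin-like peptides, the kinase TOR and sugar-sensing transcription factors. Much of this machinery is at work in the fat body, the insect counterpart of liver and adipose tissue, which also lines the inside of the head.

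Expression was given as RPKM, the reads per kilobase of exon and per M (1000000) mapped reads. Of the 17559 genes in the table, 11057 had a mean RPKM of at least 0.5 over the 12 heads and were tested. Differences are log2(RPKM + 0.5) in sucrose minus sorbose with their standard error (SE), so a negative value means less RNA after sucrose. Each test was two-sided in limma, with p adjusted over all 11057 genes by the method of Benjamini and Hochberg, and adjusted p-values under 0.05 counted as calls. Because a whole head was sequenced, fewer cells of a type and less RNA per cell cannot be told apart.

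The library sizes recovered from the RPKM values lay between 45.8 and 65.6 M reads, so that a single read in a transcript of 1 kb was worth 0.0152 to 0.0219 RPKM. Heads of one group correlated with each other between 0.953 and 0.993. Sorbose replicate 2 and sucrose replicate 3 departed most from their group, by a median of 0.150 and 0.139 on the log2 scale, against 0.0706 to 0.122 in the other 10 heads. Counts of calls are given with and without these 2 heads. Markers of neurons, glia, photoreceptors, muscle, hemocytes and cuticle overlapped between the sugars in their mean level. Of the 13 neuronal, 13 glial, 16 muscle and 7 cuticle markers, 0 had an unadjusted p under 0.05. All 13 glial and all 7 cuticle markers nevertheless had a higher mean in sucrose, by medians of 0.05 and 0.25. Of 17 photoreceptor markers 2 were higher in sucrose at that threshold (11.8%, against 4.78% of all genes). Of 11 hemocyte markers 1 was lower (9.09%, against 7.41% of all genes). Without sorbose replicate 2, 4 neuronal, 3 glial and 5 muscle markers were higher in sucrose at an unadjusted p under 0.05. In that fit 806 of all 11051 tested genes were higher in sucrose at this threshold and 1195 lower, so the marker counts lay above the share of all genes. Of 8 matched fat body markers 5 passed the filter, and 4 of these had a higher mean in sucrose. Their summed level was 685 to 994 RPKM in sorbose and 696 to 1866 RPKM in sucrose. Among them 2, apolpp and Gnmt, had an unadjusted p under 0.05 (40%, against 4.78% of all genes higher). Gnmt was low in sorbose, at 0.13 to 2.11 RPKM. In sucrose its median was 2.25 RPKM and replicate 6 held 39.1 RPKM. Its log2 difference of 1.65 was 0.99 to 1.96 when 1 head was left out. Muscle markers summed to 1665 to 5492 RPKM in sorbose and 2353 to 5357 RPKM in sucrose, with 15 of 16 higher in mean. The part that tissue make-up played in the results was not tested.

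Between sucrose and sorbose heads 8 of the 11057 genes were called, which is 0.0724% of those tested. Of these, 3 rose in sucrose (0.0271%) and 5 fell (0.0452%). The count moved with the settings, as given below, and the paper, with another method, reports a larger count for sucrose against sorbose. The largest fall was in CG5966, a predicted triglyceride lipase, followed by the neighbors CG15337 and GIIIspla2, and the rises were in CG33296, MFS9 and eIF3d1. Below the threshold for a call the excess of small p-values was large, with 1348 genes (12.2%) at an unadjusted p under 0.05 where 553 would be given by chance. At an adjusted p under 0.1 there were 150 genes (1.36%), with 99 lower (0.895%) and 51 higher (0.461%) in sucrose. At the unadjusted threshold 819 genes (7.41%) lay lower and 529 (4.78%) higher in sucrose. All 6 sucrose heads lay outside the range of the 6 sorbose heads in 129 genes (1.17%), of which 77 were lower (0.696%) and 52 higher (0.47%). Most differences were small, since the median size over all genes was 0.07 on the log2 scale and 107 genes reached 1, with 56 higher and 51 lower.

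CG5966 lies on X from 5988791 to 5992640 (dm6, plus strand). Its expression ranged from 16.6 to 103 RPKM in sorbose heads (median 46.1) and from 0.849 to 3.31 RPKM in sucrose heads (median 1.74). The groups were far apart, as the highest sucrose head held less than any sorbose head. The difference was -4.27 ± 0.46 (adjusted p = 0.00743), a difference of mean logs in which the added 0.5 raises the low values. The arithmetic means were 52.7 and 1.86 RPKM, a 28.3-fold ratio. Odor heads held 47.9 to 197 RPKM, within or above the sorbose range, so among the 3 groups it was the sucrose heads that stood apart.

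The next pair of genes are neighbors on X on the same strand, with CG15337 (8160054 to 8161552) starting 706 bases after the end of GIIIspla2 (8157628 to 8159348). GIIIspla2 encodes a secreted phospholipase A2, an enzyme that releases fatty acids from phospholipids. It was measured at 52.3 to 140 RPKM in sorbose heads (median 107) and at 17.6 to 26.8 RPKM in sucrose heads (median 24.3). No value was shared by the ranges, and the fall was 1.94 ± 0.24 on the log2 scale (adjusted p = 0.00743). CG15337 was rare in both groups, at 1.51 to 4.88 RPKM in sorbose heads (median 1.92) and 0.158 to 0.428 RPKM in sucrose heads (median 0.24), the latter from 11 to 37 reads. The ranges were again separate, with a difference of -1.94 ± 0.23 (adjusted p = 0.00743) that is compressed by the added 0.5, since the means differed 10.2-fold. Both genes were highest in odor heads, where GIIIspla2 reached 131 to 635 RPKM and CG15337 4.15 to 69.3 RPKM, so by the medians the sorbose heads lay between the other groups.

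Among the remaining falls, GstT3 (X) encodes a glutathione transferase of the theta class, an enzyme that couples glutathione to reactive compounds. Its expression was 12.1 to 19 RPKM in sorbose heads (median 15.2) and 5.68 to 11.3 RPKM in sucrose heads (median 6.86). The highest sucrose value, in replicate 3, came close to the lowest sorbose value, and the fall was 1.01 ± 0.15 (adjusted p = 0.0373). Ipk2 (2L), a kinase of inositol polyphosphates, fell by a small amount from 5.92 to 6.74 RPKM in sorbose (median 6.43) to 4.66 to 5.48 RPKM in sucrose (median 5.12), a difference of -0.29 ± 0.05 (adjusted p = 0.0434).

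The rises were 0.34 to 0.67 on the log2 scale. MFS9 (3R), a transporter of the major facilitator superfamily, was at 7.68 to 10 RPKM in sorbose (median 8.67) and 12.5 to 16.4 RPKM in sucrose (median 14). Every sucrose head was above every sorbose head, by 0.67 ± 0.08 (adjusted p = 0.00743). CG33296 (2L) went from 3.5 to 4.97 RPKM in sorbose (median 4.16) to 6.28 to 7.64 RPKM in sucrose (median 6.81), a difference of 0.66 ± 0.08 (adjusted p = 0.00743). The sucrose heads also lay above the 6 odor heads in these genes, at 1.75 to 9.56 RPKM for MFS9 and 1.65 to 5.48 RPKM for CG33296. eIF3d1 (3R), a subunit of the translation initiation factor eIF3, was at 47.2 to 53.9 RPKM in sorbose (median 49.7) and 55.6 to 66.9 RPKM in sucrose (median 65.1). The groups did not overlap, at 0.34 ± 0.05 (adjusted p = 0.0373), but the odor heads at 53.3 to 71.8 RPKM spanned the sucrose range.

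**Figure D1:**
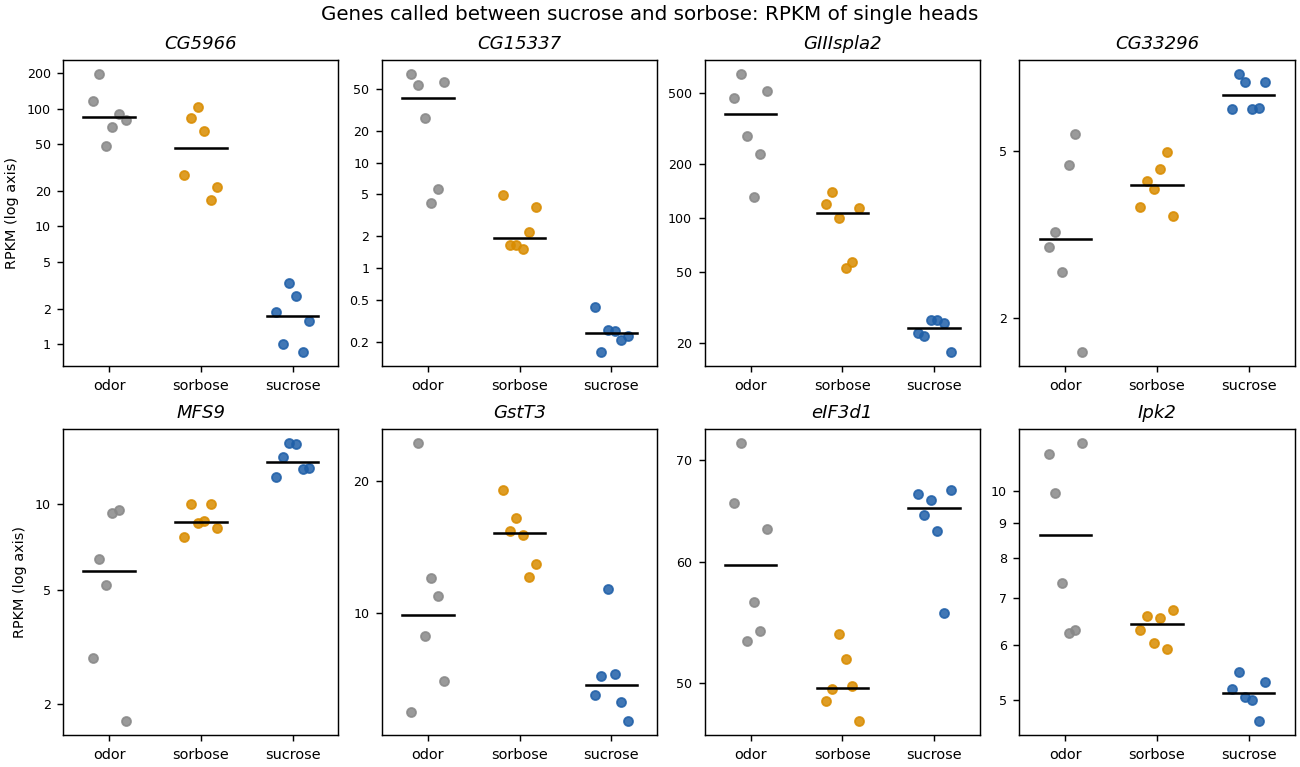
RPKM on a log axis of the 8 called genes in each of 18 single heads, 6 per group. Points are heads and bars are group medians. For CG5966 the 6 sucrose heads sit between 0.849 and 3.31 RPKM and the 6 sorbose heads between 16.6 and 103 RPKM.

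The calls differed in how far they depended on single heads. CG5966, CG15337, GIIIspla2, CG33296 and MFS9 were called in all 12 fits that each left out 1 head. GstT3 was called in 3 of them, eIF3d1 in 4 and Ipk2 in 3. When all 18 heads shared one estimate of the spread, the call remained for CG5966 (adjusted p = 0.000288) and was lost for the other 7, with adjusted p of 0.0613 for GIIIspla2, 0.16 for CG33296, 0.202 for CG15337 and 0.407 for MFS9. The total moved most with the 2 heads that departed from their group. Without sorbose replicate 2, 142 genes were called (28 higher and 114 lower in sucrose), and without sucrose replicate 3, 73 genes (8 higher and 65 lower). Both sets held the 8 genes of the full comparison. In the fits that left out any of the other heads 5 to 9 genes were called, the fewest without sorbose replicate 1 or 6 or sucrose replicate 1, 2 or 6.

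**Figure D2:**
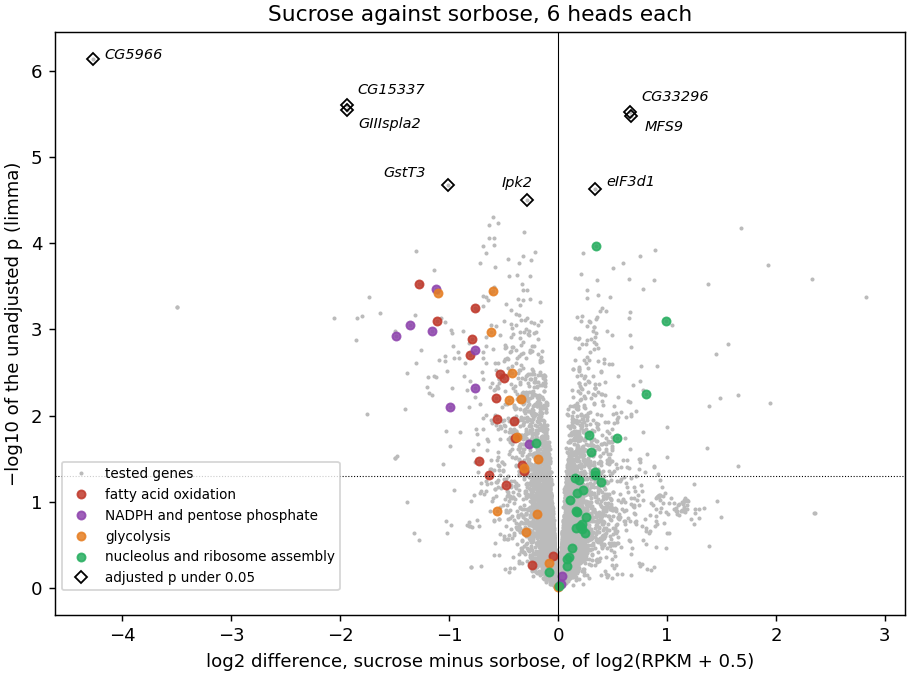
Log2 difference (x axis, sucrose minus sorbose) and -log10 of the unadjusted limma p (y axis) of the 11057 tested genes. Members of 4 functional lists are colored, open diamonds mark the 8 called genes and the dotted line is an unadjusted p of 0.05. Members of the lists of fatty acid oxidation, pentose phosphate pathway and glycolysis gather left of 0, and those of ribosome assembly right of it.

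The members of fatty acid oxidation lay lower in sucrose as a class. All 18 members tested had a lower mean, 15 of them at an unadjusted p under 0.05 against 7.41% of all genes, and the median difference was -0.55 against -0.01 over all genes. No member passed the adjusted threshold, and none separated the groups without overlap. yip2, a mitochondrial thiolase that takes part in the last step of the cycle, was at 131 to 219 RPKM in sorbose (median 186) and at 52.4 to 170 RPKM in sucrose (median 66.3). The groups overlapped through a single sucrose head, and the difference was -1.28 ± 0.25 (adjusted p = 0.0718). Mcad, the medium-chain acyl-CoA dehydrogenase, had medians of 249 and 101 RPKM (-1.11 ± 0.25, adjusted p = 0.0875), with 1353 exonic bases shared with CG7457 on the opposite strand, so that their reads could not be separated in these unstranded libraries. The carnitine carrier colt, which brings fatty acids into mitochondria, had medians of 74.5 and 42.8 RPKM (-0.77 ± 0.17, adjusted p = 0.085). The dehydrogenase scu had medians of 105 and 58.3 RPKM (-0.79 ± 0.19, adjusted p = 0.0974).

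Averaged over its 18 members on the log2 scale, the list lay at 5.32 to 5.96 in sorbose heads and 4.76 to 5.05 in 5 sucrose heads. Sucrose replicate 3 stood at 5.58, inside the sorbose range. When that head was left out, 7 of the 18 genes fell at an adjusted p under 0.05, against 65 of all 11050 tested genes. The median difference of the list was then -0.64. That head was singled out from these same values, and leaving it out widens the gap between the groups. Over the 12 fits that each left out 1 head, yip2, Mcad and scu were called in 1 and colt in 2. Members lower at an unadjusted p under 0.05 numbered 11 to 15 in those fits, and all tested genes 662 to 1195. Odor heads were spread from 4.94 to 6.41, across most of both ranges.

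The oxidative and non-oxidative enzymes of the pentose phosphate pathway, which makes NADPH and ribose, showed a larger median difference. The list of NADPH-forming and pentose phosphate enzymes has 10 members. Of these, 8 (80%, against 7.41% of all genes) were lower in sucrose at an unadjusted p under 0.05. None passed the adjusted threshold, and the median was -0.88. Zw, the glucose-6-phosphate dehydrogenase that opens the pathway, was at 19.6 to 91.7 RPKM in sorbose (median 61.1) and 12 to 24 RPKM in sucrose (median 17.3). The ranges overlapped at their ends, and the difference was -1.49 ± 0.35 (adjusted p = 0.0952). Zw shares exonic bases with an antisense RNA, asRNA:CR44512, whose reads cannot be told from its own. The same direction was seen for Taldo, the transaldolase, with medians of 636 and 209 RPKM (-1.36 ± 0.31, adjusted p = 0.0889). CG8036, a transketolase, had medians of 508 and 202 RPKM (-1.16 ± 0.27, adjusted p = 0.0931). Pgls, the 6-phosphogluconolactonase, had medians of 83.3 and 34.6 RPKM (-1.12 ± 0.23, adjusted p = 0.074). The malic enzymes Men and Men-b, which also form NADPH, had differences of 0.02 and 0.04 with unadjusted p of 0.904 and 0.706. Here the calls moved most with sorbose replicate 2, the lowest of its group with a list mean of 6.26 against 6.53 to 7.39 in the others. Without it, 6 of the 10 genes fell at an adjusted p under 0.05, against 114 of all 11051 tested genes. Leaving out the lowest sorbose head itself widens the gap between the groups. Over the 12 fits that each left out 1 head, Zw, Taldo and CG8036 were called in 1 and Pgls in 2.

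Genes of glucose production and of sugar breakdown leaned the same way. In the gluconeogenesis list 5 of 7 genes (71.4%, against 7.41% of all genes) were lower at an unadjusted p under 0.05 (median -0.66). Pepck1, the phosphoenolpyruvate carboxykinase that commits carbon to glucose synthesis, was at 581 to 1344 RPKM in sorbose (median 774) and 9.82 to 443 RPKM in sucrose (median 91.2). No sucrose head reached the sorbose range, but the sucrose heads differed so much among themselves that the difference of -3.50 ± 0.75 had an adjusted p of 0.0844. All 2486 exonic bases of Pepck1 are shared with CG45087 on the same strand, and the values of both are uncertain for the single gene. fbp, the fructose-1,6-bisphosphatase, had medians of 181 and 77.6 RPKM (-1.04 ± 0.27, adjusted p = 0.118). Mdh1 and PCB, the cytosolic malate dehydrogenase and the pyruvate carboxylase, differed by -0.66 ± 0.16 (adjusted p = 0.107) and -0.43 ± 0.10 (adjusted p = 0.0962).

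In glycolysis 9 of 14 genes (64.3%, against 7.41% of all genes) were lower at an unadjusted p under 0.05, with a median of -0.36. When 1 head was left out, the count was 7 to 10, and 662 to 1195 over all tested genes. Pgi, the glucose-6-phosphate isomerase, was at 227 to 592 RPKM in sorbose (median 408) and at 144 to 230 RPKM in sucrose (median 173), so the groups overlapped at their ends (-1.11 ± 0.23, adjusted p = 0.0757). Ald1 (-0.60 ± 0.12, adjusted p = 0.074), Tpi (-0.62 ± 0.14, adjusted p = 0.0931) and Pgk (-0.42 ± 0.11, adjusted p = 0.142), which encode consecutive or nearby steps from aldolase to phosphoglycerate kinase, differed less. Ald1 shares 338 exonic bases with asRNA:CR44321 on the opposite strand, so part of its reads are uncertain. The hexokinase Hex-A did not follow, at 0.00 with an unadjusted p of 0.983. The glycogen list lacks GlyS and GlyP because they were not matched. In it 4 of 6 genes (66.7%, against 7.41% of all genes) were lower at an unadjusted p under 0.05 (median -0.38). Of these, AGBE, the glycogen branching enzyme, had medians of 234 and 87.7 RPKM (-1.25 ± 0.31, adjusted p = 0.109), and UGP, which makes UDP-glucose, 425 and 188 RPKM (-0.98 ± 0.23, adjusted p = 0.0931). No gene of these 3 lists passed the adjusted threshold.

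**Figure D3:**
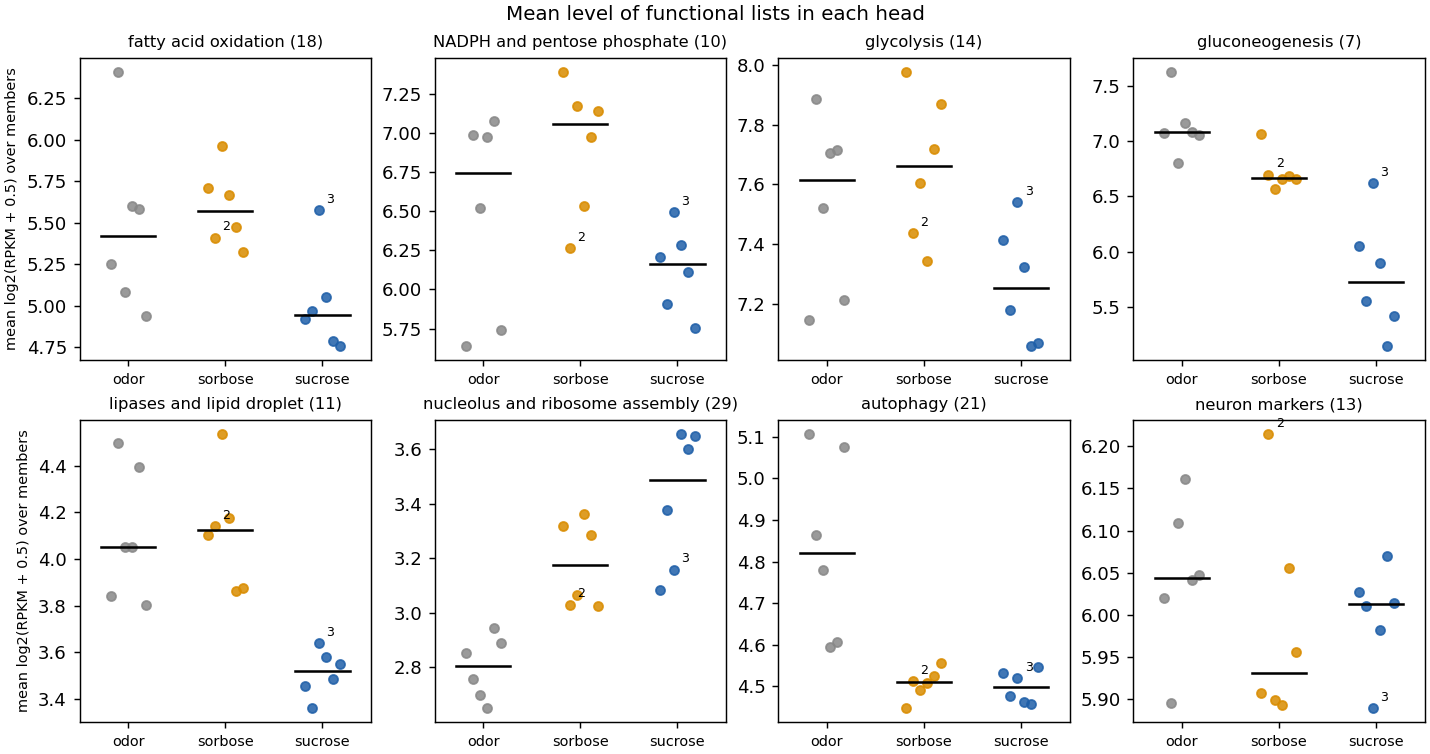
Mean log2(RPKM + 0.5) over the tested members of 8 lists in each of 18 heads, with group medians as bars and the number of members in the panel titles. Sorbose replicate 2 and sucrose replicate 3 are numbered. For fatty acid oxidation the 6 sorbose heads sit between 5.32 and 5.96 and sucrose replicate 3 at 5.58, with the other sucrose heads at 4.76 to 5.05.

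Lipid breakdown and lipid synthesis were less uniform. In the list of lipases and lipid droplet proteins 1 of 11 genes fell, CG5966, against 0.0452% of all genes. The number lower at an unadjusted p under 0.05 was 3 (27.3%, against 7.41% of all genes). The others were Lip4, a lipase with medians of 23.1 and 11.7 RPKM (-0.86 ± 0.23, adjusted p = 0.123), and Lsd-2, a perilipin of the lipid droplet with medians of 69 and 38.3 RPKM (-0.87 ± 0.24, adjusted p = 0.143). bmm, the main triglyceride lipase of the fat body, was at 57.8 to 121 RPKM in sorbose and 25.3 to 98.3 RPKM in sucrose. These ranges overlapped widely (-0.66, 95% confidence interval -1.40 to 0.08, adjusted p = 0.466), whereas the odor heads lay above both at 133 to 351 RPKM. In fatty acid and triglyceride synthesis 4 of 16 genes (25%, against 7.41% of all genes) were lower at an unadjusted p under 0.05 (median -0.09). Acsl, a ligase that activates long-chain fatty acids, was at 91 to 134 RPKM in sorbose (median 101) and 60.7 to 82.9 RPKM in sucrose (median 70.6). Its groups did not overlap (-0.59 ± 0.10, adjusted p = 0.0628). ACC, the acetyl-CoA carboxylase that begins fatty acid synthesis, differed by -0.46 (95% confidence interval -0.98 to 0.05, adjusted p = 0.466).

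Glutathione transferases formed another class in which one direction prevailed. Of 31 tested, 13 (41.9%, against 7.41% of all genes) were lower in sucrose at an unadjusted p under 0.05. None was higher at that threshold, and GstT3 fell. The median was -0.30. GstO2, of the omega class, was at 41.5 to 71 RPKM in sorbose (median 57.1) and 32.1 to 38.2 RPKM in sucrose (median 35.2). The groups did not overlap (-0.67 ± 0.12, adjusted p = 0.0628). The relatives of GstT3 in the theta class differed less, with -0.53 ± 0.13 for GstT1 (adjusted p = 0.0941) and -0.34 ± 0.08 for GstT2 (adjusted p = 0.0875). Cytochrome P450 genes, which serve detoxification and hormone synthesis, were mixed, with 13 lower and 6 higher of 73 at an unadjusted p under 0.05. These are shares of 17.8% and 8.22%, against 7.41% and 4.78% of all genes.

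**Figure D4:**
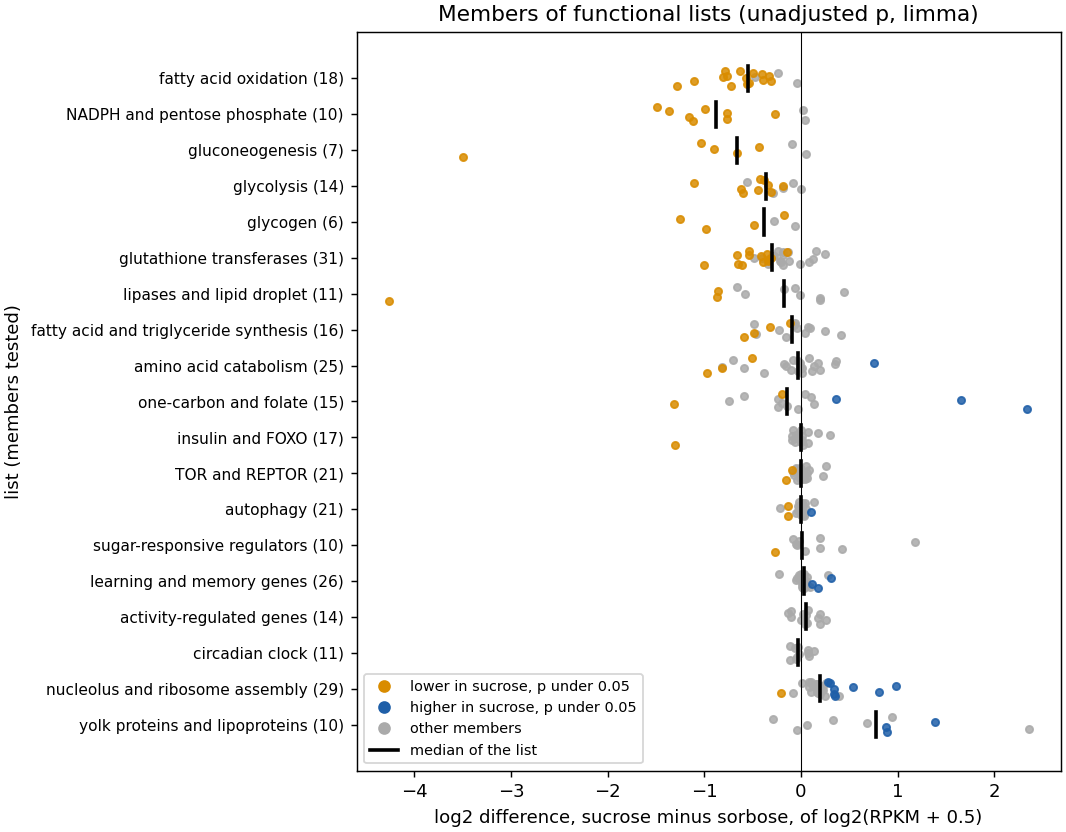
Log2 difference (sucrose minus sorbose, x axis) of each tested member of 19 functional lists (y axis, number of members in brackets), with black bars for the list median. Orange and blue points are members with an unadjusted limma p under 0.05 and gray points the others. The median of fatty acid oxidation is -0.55, that of pentose phosphate -0.88 and that of ribosome assembly 0.20.

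On the side of growth, the genes for the nucleolus and ribosome assembly leaned toward sucrose. Of 29 members 27 had a higher mean, 8 of them at an unadjusted p under 0.05 against 4.78% of all genes, and the median was 0.20, with none called. The only member lower at that threshold was Mat1 (-0.21). Ns2, a nucleolar GTPase of the nucleostemin family, was at 13.4 to 16.8 RPKM in sorbose (median 14.9) and 18 to 21.3 RPKM in sucrose (median 18.9). The ranges were separate, although the difference of 0.35 ± 0.06 had an adjusted p of 0.0628. Fib, the fibrillarin that methylates ribosomal RNA, was at 5.28 to 8.56 RPKM in sorbose (median 6.95) and 8.6 to 21.7 RPKM in sucrose (median 14.4). Its groups were adjacent without overlap, and the difference was 0.99 ± 0.22 (adjusted p = 0.0875). nop5, a core protein of the same snoRNA particles, had medians of 7.28 and 14.1 RPKM (0.81 ± 0.24, adjusted p = 0.174). Odor heads were lowest, at 3.36 to 5.03 RPKM for Fib and 2.57 to 4.02 RPKM for nop5. The count of 8 depended on single heads. It was 5 without sorbose replicate 2, 3 or 6 or sucrose replicate 4, 5 or 6, 13 without sucrose replicate 3 and 15 without sucrose replicate 1. Over all tested genes the number higher at that threshold was 384 to 806 when 1 head was left out. Of the 29 genes, 2 rose at an adjusted p under 0.05 without sucrose replicate 3, and 1 without sorbose replicate 2. In those fits 8 of 11050 and 28 of 11051 tested genes rose. The structural proteins of the cytoplasmic ribosome did not share this pattern, with 0 of 77 at an unadjusted p under 0.05 in either direction and a median of -0.04. In mean, 68 of them were lower in sucrose and 9 higher. Sorbose replicate 2 had the lowest mean of these genes (8.80 against 9.35 to 9.59 in its group). Without it 43 of 77 were lower in sucrose at an unadjusted p under 0.05 and 0 were called. In that fit 1195 of all 11051 tested genes were lower at the unadjusted threshold and 806 higher.

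Of 17 insulin and FOXO genes 1 (ImpL2) separated the sugars without overlap, and of 24 feeding hormones and receptors 1 (fit), against 1.17% of all genes. At an unadjusted p under 0.05 these lists lay near or below the shares of all genes, with 5.88% and 4.17% lower and 0% and 4.17% higher. ImpL2, which binds insulin-like peptides in the hemolymph and limits their action, was at 13.7 to 34 RPKM in sorbose (median 31.2) and 6.69 to 13.2 RPKM in sucrose (median 10), with odor heads at 43.2 to 133 RPKM. Its level thus stepped down from odor to sorbose to sucrose, and the difference between the sugars was -1.30 ± 0.23 (adjusted p = 0.0628). fit, a satiety hormone of the fat body of the head, was at 5.88 to 35.4 RPKM in sorbose (median 17.1) and 39.7 to 247 RPKM in sucrose (median 138). It had the largest positive difference among the genes named here, 2.83 ± 0.59, with a wide spread among heads and an adjusted p of 0.0764. Of its 531 exonic bases, fit shares 67 with CG31465 on the opposite strand and 32 with asRNA:CR45046. The latter also ranked among the higher genes (1.93 ± 0.36, adjusted p = 0.0641). It shares 3001 exonic bases with CG31465 on the opposite strand, so the reads of asRNA:CR45046 and CG31465 cannot be told apart. Across the 18 heads fit and asRNA:CR45046 correlated at 0.938, and whether they are separate signals was not tested.

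No hormone or nutrient-sensing gene named here, ImpL2 and fit included, passed the adjusted threshold, and the intervals differed in width. The insulin-like peptide gene Ilp2 was at 60.7 to 91.7 RPKM in sorbose and 67.9 to 77.3 RPKM in sucrose (-0.06, 95% confidence interval -0.24 to 0.12). Ilp3 differed by 0.07 (-0.20 to 0.34), Ilp5 by 0.17 (-0.49 to 0.83) and Ilp6, expressed in the fat body, by 0.30 (-0.006 to 0.61). Thor, the translational repressor 4E-BP and a target of FOXO, had medians of 281 RPKM in sorbose and 282 RPKM in sucrose. Its interval of -0.29 to 0.28 bounds the difference between the sugars, while odor heads were at 441 to 2006 RPKM. Mondo, which senses sugar phosphates in the nucleus, was at 27.5 to 39.9 RPKM in sorbose and 20.1 to 32.4 RPKM in sucrose (-0.27 ± 0.12, adjusted p = 0.409). Its target sug had medians of 1.93 and 9.55 RPKM, but 1 sorbose head stood at 28.4 RPKM, above all sucrose heads, and the interval ran from -0.31 to 2.67. AkhR, the receptor of the glucagon-like adipokinetic hormone, differed by -0.55 ± 0.16 (adjusted p = 0.16). In the TOR list 2 of 21 genes were lower at an unadjusted p under 0.05 and 0 higher, and in the autophagy list 2 were lower and 1 higher of 21, shares of 9.52% lower in each that lie near the 7.41% of all genes. Tor and S6k were not matched and are not among these genes. The autophagy mean was 4.45 to 4.56 in sorbose and 4.46 to 4.55 in sucrose, and 4.59 to 5.11 in odor heads.

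**Figure D5:**
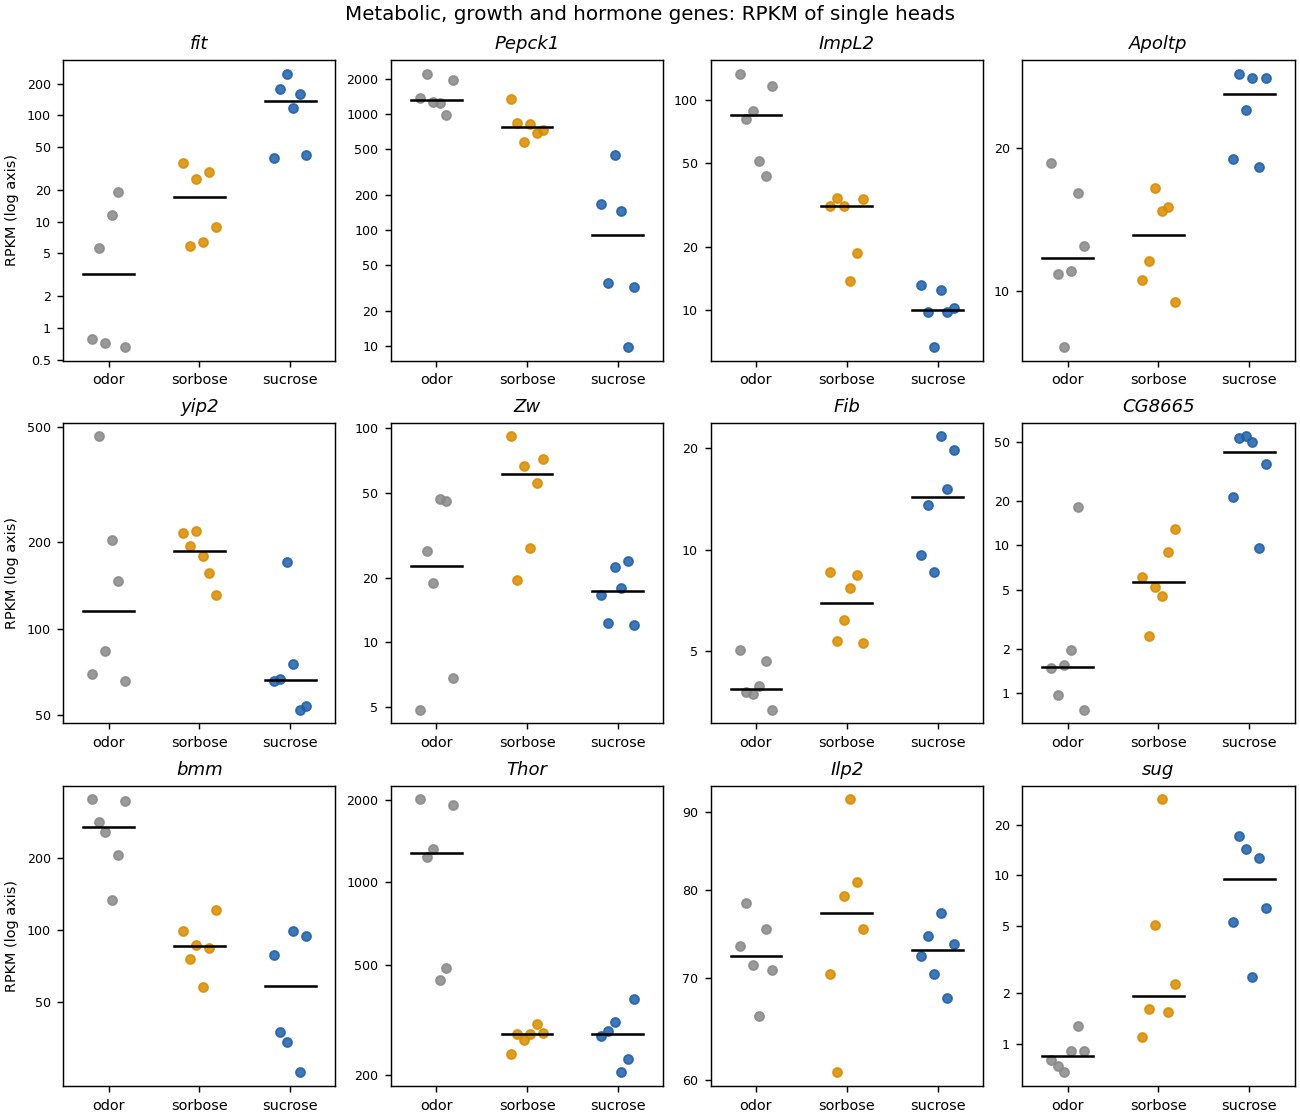
RPKM on a log axis of 12 metabolic, growth and hormone genes in each of 18 heads, with bars for group medians. The sucrose and sorbose heads of fit, Pepck1, ImpL2, Apoltp and Fib do not overlap, while Thor has medians of 281 and 282 RPKM in the sugars and 441 to 2006 RPKM in odor heads.

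The lipid carriers Apoltp and apolpp of the hemolymph had higher means in sucrose, and neither was called. Apoltp, the lipid transfer particle that loads lipoproteins, was at 9.44 to 16.5 RPKM in sorbose (median 13.1) and 18.2 to 28.8 RPKM in sucrose (median 26.1). The groups did not overlap (0.89 ± 0.16, adjusted p = 0.0628). Its partner apolpp, the main lipoprotein of the hemolymph, was at 62.7 to 270 RPKM in sorbose and 119 to 433 RPKM in sucrose (0.88 ± 0.38, adjusted p = 0.372). Among 10 yolk proteins and lipoproteins 3 (30%, against 4.78% of all genes) were higher at an unadjusted p under 0.05 and none lower. These were Apoltp, apolpp and Lsp1beta, the last at 0.31 to 1.6 RPKM in sorbose and 0.509 to 6.45 RPKM in sucrose. None of the 10 was called, and the median was 0.78. apolpp and Lsp2 stand both in this list and among the fat body markers, so the higher level of those markers is in part the same measurement. Without sucrose replicate 3 the median of the list was 0.51, with 2 genes higher at an unadjusted p under 0.05. In that fit 1385 of all 11050 tested genes reached this threshold in either direction.

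In the list of one-carbon and folate enzymes the members were split, with 9 of 15 lower in mean and a median of -0.15. CG8665, a 10-formyltetrahydrofolate dehydrogenase, was at 2.45 to 12.9 RPKM in sorbose (median 5.67) and 9.59 to 54.8 RPKM in sucrose (median 42.9). A single sucrose head lay within the sorbose range (2.34 ± 0.46, adjusted p = 0.0708). Sam-S, the S-adenosylmethionine synthetase, separated the groups, at 50.4 to 67.8 RPKM in sorbose and 68.4 to 85.1 RPKM in sucrose (0.36 ± 0.08, adjusted p = 0.0875). Sardh, the sarcosine dehydrogenase, went the other way without overlap, at 18.5 to 49.8 RPKM in sorbose and 3.92 to 17.8 RPKM in sucrose (-1.31 ± 0.34, adjusted p = 0.123). In amino acid catabolism 3 of 25 genes were lower at an unadjusted p under 0.05 and 1 higher. These shares of 12% and 4% lie near the 7.41% and 4.78% of all genes. Got1, an aspartate aminotransferase, had medians of 444 and 225 RPKM (-0.98 ± 0.23, adjusted p = 0.0936), and Odc1, the ornithine decarboxylase of polyamine synthesis, 47.9 and 85.2 RPKM (0.76 ± 0.20, adjusted p = 0.129).

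Lists that concern neurons held no called gene. Of 26 learning and memory genes 22 had a higher mean, 3 of them (11.5%) at an unadjusted p under 0.05 against 4.78% of all genes, none was lower at that threshold, and the median was 0.03. Gclm, the modifier subunit of glutamate-cysteine ligase, was at 33.2 to 43 RPKM in sorbose and 39.3 to 61.2 RPKM in sucrose (0.31 ± 0.11, adjusted p = 0.256). N, the Notch receptor, differed by 0.17 ± 0.05 (adjusted p = 0.197). Of 14 activity-regulated genes and 11 clock genes, 0 reached an unadjusted p under 0.05 in either list.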

How the data were processed

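Per the labels, polyA RNA of single heads was made into non-stranded libraries. The authors aligned reads with TopHat2 2.0.13 to dm6 and normalized with edgeR 3.18.1, and the deposited values are RPKM, with replicates kept separate. Another passage of the methods names dm3 and cuffdiff, and the gene identifiers fitted the dm6 annotation of Ensembl, in which 17253 of 17559 were found. The other 306 kept their identifier and no name.

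RPKM are not counts, so log2(RPKM + 0.5) was fitted with limma 3.58.1 in R 4.3.3 (lmFit, eBayes with a trend) to the 12 heads, after a filter of mean RPKM at least 0.5, and the code was tested on simulated data. Of the values, 97.8% came out as whole reads within 0.05, which gave the library sizes. Replicate numbers name heads only. Each head is a separate animal, but flies were trained in groups, and which heads shared a training group was not given in the sources used here, so p-values measure the spread between these heads.

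Named genes are the 12 smallest p-values in each direction, all called genes, up to 4 members of each list at an unadjusted p under 0.05, and genes listed by name, and not all are printed. Other members, such as Men, Men-b, Hex-A and Mat1, were chosen after their values were seen. The members and the lists were chosen with earlier results of these data known, and no test of a list as a whole was run. Promoter motifs were planned and not run. Several list members were not matched and were not analysed here, among them Drs, FASN1, InR, Akt1, Tor, S6k, GlyS and GlyP.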

Additional observations from a re-analysis of the deposited data

Results flagged for a closer look

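In each group of 6 heads the most extreme head was compared with the range of the others by Dixon's ratio, and 22 of 282 cases stood apart where chance gives 14.1. Values below are log2(RPKM + 0.5), and the range of the other 5 heads follows each.

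Sucrose replicate 3 was high for GstT3 (3.56 against 2.63 to 2.95), yip2 (7.41 against 5.72 to 6.25), GstT1 (4.63 against 4.13 to 4.26) and scu (6.58 against 5.76 to 6.06), and low for orb (2.10 against 2.23 to 2.27). Its list mean was high for fatty acid oxidation (5.58 against 4.76 to 5.05) and for the stress-induced Turandot genes (5.75 against 1.73 to 3.13).

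Sucrose replicate 6 was high for DptB, an antimicrobial peptide (11.03 against 2.19 to 3.34), and GNBP-like3 (7.40 against 4.54 to 5.31). Its list means were high for antimicrobial peptides (8.89 against 1.25 to 1.95), Bomanins (8.18 against 6.20 to 6.93) and activity-regulated genes (4.55 against 4.15 to 4.26).

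Sucrose replicate 5 was low for eIF3d1 (5.81 against 5.98 to 6.07), Cyp313a1 (6.03 against 6.53 to 6.80) and Sardh (2.14 against 3.45 to 4.19). The only gut protease tested was high in sucrose replicate 1 (0.38 against -0.08 to 0.07).

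Sorbose replicate 1 was low for Atg18a (4.47 against 4.64 to 4.68) and for the only ovary marker tested (3.24 against 3.37 to 3.45), and high in its list means for gluconeogenesis (7.06 against 6.57 to 6.70) and heat shock proteins (5.36 against 3.93 to 4.27). Sorbose replicate 2 was low for cytoplasmic ribosomal proteins (8.80 against 9.35 to 9.59) and high for cuticle and oenocyte markers (3.00 against 2.44 to 2.61).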

How the results depend on the processing

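The 8 calls (3 higher, 5 lower) became 54 with quantile normalization (14 higher, 40 lower), 242 with sample quality weights (68 and 174), 150 at an adjusted p under 0.1 (51 and 99), 11 without a trend (8 lower) and 14 with voom on the recovered reads (10 lower), an alternative chosen after seeing the data. They became 4 when a log2 difference of 1 was also asked (0 higher), 6 with no filter (3 lower), 11 with a minimum mean RPKM of 5, and 1 when all 18 heads shared one fit (0 higher, 1 lower). The exact permutation test called 0 (0 higher, 0 lower), with 1293 genes at an unadjusted p under 0.05 and a smallest adjusted p of 0.186. With 6 against 6 heads the smallest exact p is 0.00216, shared by the 129 genes without overlap, so no gene could pass and these 0 calls say nothing about stability. The 8 genes were among the calls with quantile normalization, quality weights, voom and no trend. With the replicate block 36 genes were called (6 higher, 30 lower). Heads with the same number correlated between -0.15 and 0.43, and only for number 2 was the same-numbered head the best partner, so the numbers do not pair heads.

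Leaving out 1 head gave 5 to 142 calls (2 to 28 higher, 3 to 114 lower), with 142 without sorbose replicate 2, 73 without sucrose replicate 3 and 5 without sorbose replicate 1 or 6 or sucrose replicate 1, 2 or 6. It left 141 to 345 genes without overlap, with 345 without sorbose replicate 2 and 277, 198 and 205 without sucrose replicate 3, 5 and 6. Dropping a head can only narrow the range of its group. Apart from genes that crossed the filter, the count therefore could not fall below the 129 of the full comparison. Over the fits that left out 1 head the difference ranged from -0.91 to 0.14 for tobi and from -0.80 to 1.10 for DptB. Both were of opposite sign without sucrose replicate 6. For Ilp5 it ranged from -0.032 to 0.38, of opposite sign without sucrose replicate 3. The log2 difference of Thor, at 0.00 in the full comparison, ranged from -0.093 to 0.085 and was at 0.00436 with median-of-ratios scaling, 0.027 with quantile normalization and 0.000556 with voom. The causes were not tested. At 6 heads per sugar, differences within the spread of single heads were not detectable.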

Other observations

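Among the 12 genes of smallest p on each side, several belonged to none of the classes above. Obp99b, an odorant-binding protein gene, was at 2.35 to 7.42 RPKM in sorbose heads (median 4.73), 10.6 to 23.5 RPKM in sucrose heads (median 13.6) and 0.436 to 3.68 RPKM in odor heads. Its sugar groups did not overlap, with a difference of 1.68 ± 0.28 (adjusted p = 0.0611). ras, the IMP dehydrogenase of guanine nucleotide synthesis, was at 39.3 to 43.6 RPKM in sorbose, 46.1 to 52.8 RPKM in sucrose and 32.7 to 37.8 RPKM in odor heads, so each group had its own range (0.23 ± 0.04 between the sugars, adjusted p = 0.0628). Naglu, a lysosomal glucosaminidase, was at 3.22 to 4.15 RPKM in sorbose and 4.79 to 6.88 RPKM in sucrose (0.51 ± 0.10, adjusted p = 0.0648). The cuticle protein gene Cpr49Ag was at 114 to 155 RPKM in sorbose and 160 to 236 RPKM in sucrose (0.60 ± 0.11, adjusted p = 0.0629).

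On the lower side, Irp-1B, an iron regulatory protein related to aconitase, was at 30.1 to 40.4 RPKM in sorbose and 19.9 to 28.8 RPKM in sucrose (-0.60 ± 0.10, adjusted p = 0.061). ScsbetaA, a subunit of succinyl-CoA ligase of the citric acid cycle, had medians of 360 and 224 RPKM (-0.59 ± 0.10, adjusted p = 0.0628), with overlap between the groups. CG5567 had medians of 58.8 and 35.1 RPKM (-0.64 ± 0.11, adjusted p = 0.0611) and shares 831 exonic bases with asRNA:CR45175 on the opposite strand, whose reads cannot be told from its own.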
